A study of Mus musculus with 3 samples.

Results

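The transcripts of 8 complement genes, C3, C4b, Cfb, Cfd, Serping1, C1s1, C1ra and C7, were followed across the cell types of mouse dorsal skin. They were found by symbol among the 31053 features of the count matrices, and all 8 were present. Cells were captured in droplets from 3 libraries, 1 per group, and each library gives unique molecular identifier (UMI) counts, read near the 3' end of transcripts. How many mice went into a library was not stated in the labels. The young control was 2.5 months old, carried Yap1 fl/fl and Wwtr1 fl/fl without a recombinase, and received tamoxifen. The young knockout had the same age, floxed alleles and tamoxifen, and carried R26-CAG-CreER, a tamoxifen-activated recombinase under a ubiquitous promoter, so the recombinase was not limited to fibroblasts. YAP and TAZ (the product of Wwtr1) are transcriptional co-activators of the Hippo pathway. The old control mice, wild-type animals of 24 months, had no treatment, so old age came together with another genotype and no tamoxifen. Both young groups received 0.11 mg tamoxifen per g body weight by gavage on 2 days a week for 4 weeks.

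Complement is a cascade of plasma and tissue proteins that tags surfaces for removal. In the classical pathway, C1q carries the proteases C1r and C1s, which cleave C4 and C2. In the alternative pathway, factor D cleaves factor B bound to C3. Both routes lead to cleavage of C3, and C7 belongs to the terminal membrane attack complex, which opens pores in membranes. Serping1 encodes C1 inhibitor, which inactivates C1r and C1s. The liver supplies most complement in plasma, and connective tissue cells are a known local source.

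After filtering, 30547 cells remained, 10784 from the young control, 8655 from the knockout and 11108 from the old control. They fell into 34 clusters, of which 24 could be named from cell type markers as 13 classes. The median barcode held between 1199 and 3568.5 UMIs in the 3 libraries, and the share of barcodes over the mitochondrial limit was 62.4% in the knockout against 12.3% and 19.4% in the controls. The unnamed clusters, in which markers of several classes mixed, held 81.6% of knockout cells, 37.5% of old control cells and 3.37% of young control cells. In the knockout most of these cells stood nearest to the vascular endothelial, pericyte or smooth muscle, Schwann or sebocyte markers. The named classes therefore cover only part of such cells. Fibroblast-like cells numbered 2566, 194 and 347 in the young control, the knockout and the old control, with median depths of 5578, 6306 and 5923 UMIs. In them Col1a1 stood at 19160, 7294 and 4888 CPM (counts of the gene scaled to 1e6 UMIs summed over the class), against 425, 43.5 and 75.6 CPM in the class of T, NK or innate lymphoid-like cells. In fibroblast-like cells Wwtr1 was at 126 CPM [120–132] in the young control, 24.9 [17.1–35.0] for knockout cells and 117 [103–133] for old control cells, while Yap1 was at 58.9 [55.1–63.0], 51.3 [39.8–65.0] and 50.7 [41.5–61.3]. Yap1 transcripts were thus not detectably lower in the knockout, and where the 3' reads lie relative to the floxed part was not stated in the labels. By the Y-linked Ddx3y (0, 177 and 0 UMIs) and by Xist (16102, 0 and 2112 UMIs), the knockout cells came from male skin and the control cells from female skin, so genotype and sex cannot be told apart in the knockout comparison. Pairs of libraries shared 41, 39 and 48 cell barcodes. Brackets give 95% intervals for counting error only. With 1 library per group there is no test between groups and no p-value.

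The genes lie on 5 chromosomes in the GENCODE M21 annotation of GRCm38. C4b (chr17:34728380-34743882, minus strand) and Cfb (chr17:34856374-34862518, minus strand) lie near each other, and C3 (chr17:57203970-57228136, minus strand) lies farther along the same chromosome. C1ra (chr6:124512405-124523443, plus strand) and C1s1 (chr6:124530345-124542359, minus strand) are neighbours that point towards each other. Serping1 is at chr2:84765387-84775444 (minus strand), Cfd at chr10:79890853-79892655 (plus strand) and C7 at chr15:4988762-5063740 (minus strand). Near-identical copies limit some counts. The last 500 bases of the longest C4b and C4a transcripts were 97.6% identical, and 19.8% of their 91-base windows occurred unchanged in C4a. C4a, known in mouse as sex-limited protein, was not used here, so C4b counts can include reads from it. For C1s1 and C1s2 the identity was 76.6%, and for C1ra and C1rb it was 52.1%, and these copies held at most 7 UMIs in fibroblast-like cells of any library. The gene model Gm20547 shares 79.5% of the Cfb exon bases on the same strand and had 0 UMIs in all cells, so reads common to both may have been dropped, and the Cfb levels below may be too low.

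Promoters of 5 of the 8 genes were in the RefSeq table (GRCm38.p6). 3 promoters are printed, because C3 had its lowest fibroblast level in the knockout and because C1s1 and C1ra followed each other across cell clusters. Each run holds the 250 bases before the start, 5′ to 3′ on the gene's strand, and capitals mark a match to TTGCNNAA, a motif of C/EBP factors, on either strand.
C3, chr17:57228137-57228386, minus strand: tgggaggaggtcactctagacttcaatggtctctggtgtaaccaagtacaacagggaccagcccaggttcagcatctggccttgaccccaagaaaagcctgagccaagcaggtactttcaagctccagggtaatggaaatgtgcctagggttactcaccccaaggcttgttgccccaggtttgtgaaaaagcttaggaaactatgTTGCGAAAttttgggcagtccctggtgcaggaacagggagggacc
C1s1, chr6:124542360-124542609, minus strand: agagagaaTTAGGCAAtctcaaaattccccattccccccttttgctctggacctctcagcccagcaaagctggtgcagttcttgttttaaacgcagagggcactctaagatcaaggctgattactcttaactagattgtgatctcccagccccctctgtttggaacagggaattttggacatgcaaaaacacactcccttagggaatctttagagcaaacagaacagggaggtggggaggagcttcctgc
C1ra, chr6:124512371-124512620, plus strand: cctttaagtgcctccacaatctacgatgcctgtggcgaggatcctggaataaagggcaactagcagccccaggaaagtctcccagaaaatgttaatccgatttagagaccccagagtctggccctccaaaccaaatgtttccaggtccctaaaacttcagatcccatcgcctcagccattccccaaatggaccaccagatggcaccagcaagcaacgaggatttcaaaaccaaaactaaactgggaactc
The C/EBP letters began 45 bases before the C3 start and, on the opposite strand, 242 bases before this C1s1 start. The other C1s1 promoter of the table, chr6:124542322-124542571, held no C/EBP match in its 250 bases. The C/EBP letters occurred in 9.56% of the 32851 promoters of the table. The interferon-type motifs TTCNNNGAA (GAS, in 7.02% of promoters) and ISRE (in 2.98%) were in none of these 3 runs, and GAS letters occurred once before C7. None of the 3 motif patterns overlapped another in these runs.

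In the young control, fibroblast-like cells had the highest level of 6 of the 8 genes among 13 classes. C4b was highest in Schwann-like cells and Cfd in vascular endothelial-like cells. Of the UMIs in all kept cells of that library, fibroblast-like cells supplied 90.4% for C3, 85.6% for Serping1 and 84.9% for C1ra. They supplied 77.2% for C1s1, 73.5% for Cfb and 57.0% for C4b, while they held 18.5% of all UMIs of the kept cells. Free RNA was not subtracted for these shares. For Cfb and C7 the interval of the leading class overlapped that of the next one, so counting error leaves their order unsettled. All complement genes of the list had been left out of the clustering.

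**Figure D1:**
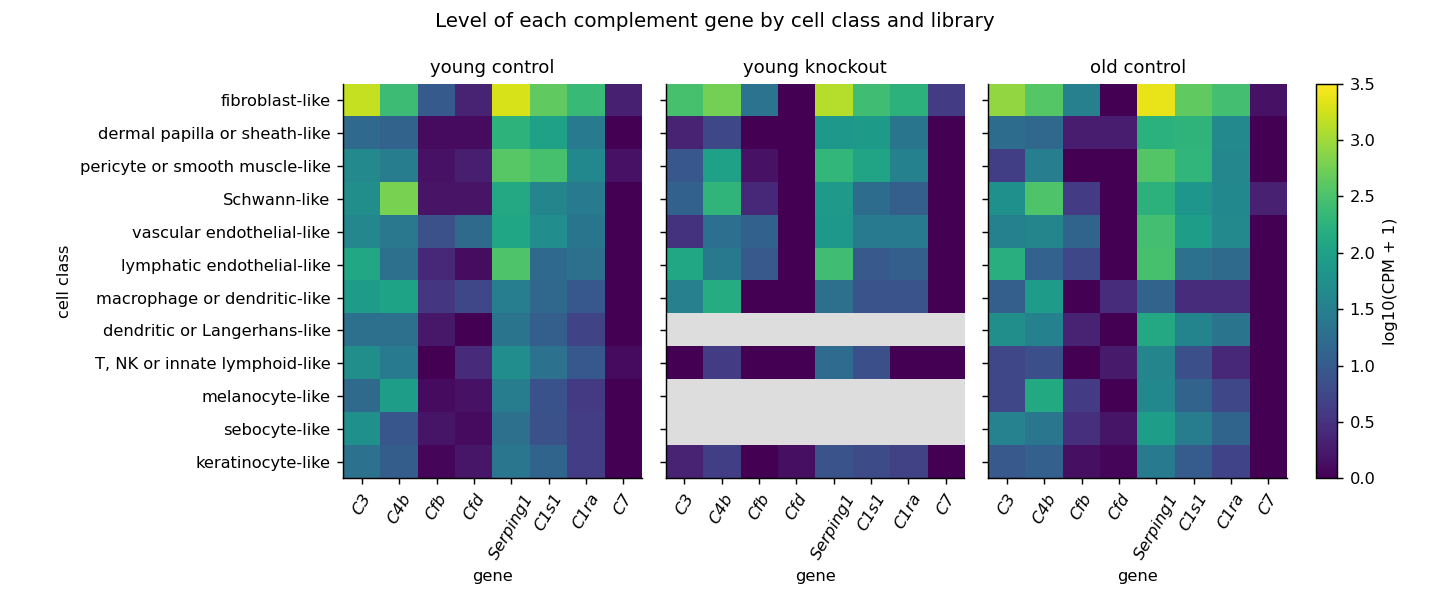
Level of the 8 complement genes (columns) in 12 cell classes (rows) in the young control, young knockout and old control libraries, as log10(CPM + 1) of summed UMIs, with classes under 40 cells in grey. The row of fibroblast-like cells is brightest for C3, Serping1, C1s1 and C1ra in all 3 libraries, and C4b is also bright in Schwann-like cells.

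C3, the central protein of the cascade, was most abundant in fibroblast-like cells and was lowest there in the knockout. Summed over these cells it reached 1535 [1515–1555] CPM in the young control (23024 UMIs). The knockout held 298 [269–329] CPM (395 UMIs), and the old control 868 [829–909] CPM (1815 UMIs). The intervals of the 3 libraries did not overlap. Knockout over young control gave a ratio of 0.194 [0.175–0.214], and old over young control 0.565 [0.539–0.593]. Both ratios share the young control library. Ratios were read by a size rule, which asks for a ratio of 2 or more (0.5 or less for lower) and a near interval bound past 1.5-fold. It also asks for a mean level of 20 CPM or more over the libraries with at least 40 cells in the group. In fibroblast-like cells 6 of the 8 genes were over the level limit, Cfb only through the knockout and the old control. C3 alone of these counted as lower in the knockout, against 4.03% of all 6208 genes over the limit. In the old control 0 of the 8 genes counted as lower, against 2.21% of all genes. The median log2 ratio over the 6 genes was -0.44 for the knockout and 0.32 for the old control, where all genes over the limit had medians of 0.17 and 0.04. Within the Col1a1 cluster, described below, the medians over the 6 genes were 0.06 and 0.74. All genes over the limit there had medians of 0.20 and 0.06.

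C3 transcripts were also found in fewer fibroblast-like cells outside the young control. A C3 UMI was present in 74.8% [73.1–76.5] of them there, in 45.4% [38.2–52.6] of knockout cells and in 46.7% [41.3–52.1] of old control cells. After thinning each cell to 1500 UMIs, which left out 71, 3 and 18 shallower cells, the shares were 59.8%, 25.7% and 35.3%. T, NK or innate lymphoid-like cells served as a measure of free RNA, with median depths of 2888, 4075 and 4178 UMIs. In them the thinned C3 shares were 7.55%, 0% and 0%, and the unthinned shares were 14.8%, 0% and 1.39%. Fibroblast-like cells were above this background in every library.

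Fibroblast-like cells formed 4 clusters, named below by their first leading gene. The cluster of Col1a1, Col1a2 and Col3a1 held 1379, 89 and 210 cells of the young control, knockout and old control. The cluster of Gpx3, Dpt and Ifi205 held 883, 19 and 42, the cluster of Apod, Sfrp5 and Ebf2 164, 43 and 46, and the cluster of Coch, Fmod and Tnmd 140, 43 and 49. The Gpx3 cluster was over 2-fold above the other fibroblast clusters for 5 of 6 reticular markers (Mgp, Plac8, Col14a1, Thbs4 and Mfap5) and 5 of 6 Gpx3 and adipogenic markers. The Coch cluster was so for 4 of 7 papillary markers and 3 of 5 Coch and elastin markers. The Apod cluster was so for 4 of 6 reticular markers, although the mean log2 fold over that list was -0.015. The Col1a1 cluster was so for 2 of 5 Coch and elastin markers (Eln and Mfap4) and 2 of 7 papillary markers. In the young control 6 of the 8 complement genes were highest in the Gpx3 cluster.

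Young control C3 was 2175 [2138–2213] CPM in the Gpx3 cluster and 1266 [1240–1291] CPM in the Col1a1 cluster. It was far lower in the Apod cluster, at 158 [126–195] CPM, and in the Coch cluster, at 99.2 [77.7–125] CPM. In the Col1a1 cluster the knockout had 503 [448–562] CPM and the old control 1060 [1006–1116] CPM, with ratios of 0.397 [0.354–0.445] and 0.837 [0.792–0.885]. The knockout thus counted as lower within this cluster, as 2.94% of all genes did. In the Gpx3 cluster C3 was 418 [324–530] CPM in 19 knockout cells and 1170 [1049–1300] CPM in 42 old control cells. The Apod cluster had 158, 31.4 and 214 CPM and the Coch cluster 99.2, 30.8 and 10.1 CPM in the young control, knockout and old control. When every library was given the young control's mix of clusters, the ratio over fibroblast-like cells was 0.279 for the knockout and 0.666 for the old control. These ratios have no interval, and the knockout value draws on the 19 cells of the Gpx3 cluster.

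**Figure D2:**
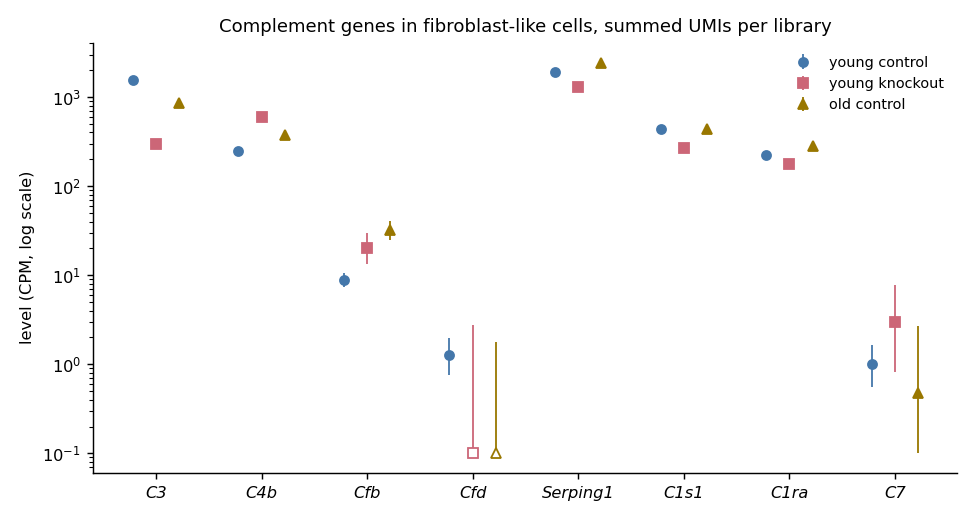
Level of the 8 complement genes in fibroblast-like cells of the 3 libraries, in CPM of summed UMIs on a log scale, with exact Poisson 95% intervals. Open symbols at the foot of the axis mark 0 UMIs. C3 lies at 1535, 298 and 868 CPM in the young control, knockout and old control, and C4b at 248, 593 and 375 CPM.

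C4b, the mouse gene of complement component C4, showed the opposite order in fibroblast-like cells. The young control was lowest at 248 [240–256] CPM, the old control followed at 375 [349–402] CPM, and the knockout was highest at 593 [552–636] CPM. No intervals overlapped. The knockout ratio of 2.39 [2.21–2.58] met the size rule, as 5.24% of all genes did in that direction, while the old ratio of 1.51 [1.4–1.63] was under its fold limit. With the young control's mix of clusters in every library, the ratios were 3.91 and 2.4. The difference was larger within the Col1a1 cluster. There C4b was 110 [103–118] CPM in the young control, 920 [846–998] CPM in the knockout and 351 [320–384] CPM in the old control. The ratios were 8.36 [7.51–9.31] and 3.19 [2.85–3.58], in a cluster where 4.4% and 2.05% of all genes counted as higher. A C4b UMI was present in 21.9% [19.7–24.2] of its young control cells, 77.5% [67.4–85.7] of its knockout cells and 33.8% [27.4–40.6] of its old control cells. T, NK or innate lymphoid-like cells stood at 7.67%, 1.37% and 2.08%.

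In the Gpx3 cluster C4b was 469 [452–487] CPM in the young control and 1027 [915–1150] CPM in the old control, a ratio of 2.19 [1.94–2.47], where 2.02% of all genes counted as higher. The 19 knockout cells of that cluster held 1234 [1068–1419] CPM. C4b was low in the Apod cluster, at 42.7, 55.8 and 34.6 CPM, and in the Coch cluster, at 27.2, 11.5 and 0 CPM, the last from 0 UMIs. Reads of C4a can enter the C4b count, and the part of C4a and of sex in the knockout values was not tested.

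Schwann-like cells, the glia of peripheral nerve, had the most C4b in the young control. The cluster of Scn7a, Kcna2 and Cadm2 held 1272 [1199–1349] CPM in the young control (320 cells), 493 [432–560] CPM in the knockout (177 cells) and 460 [409–515] CPM in the old control (365 cells). The young control was highest, and the intervals of the other libraries overlapped. The ratios of 0.388 [0.336–0.447] and 0.361 [0.317–0.411] both met the size rule, beside 4.18% and 7.06% of all genes. C4b UMIs were present in 78.4%, 49.7% and 36.7% of these cells, and in 73.9%, 44.1% and 38.6% after thinning. The 6 Schwann markers summed to 8510, 6489 and 6556 CPM in this cluster, and the 10 keratinocyte markers to 3730, 824 and 10269 CPM, with no marker of either list at 0. The 8 pericyte or smooth muscle markers summed to 264, 757 and 595 CPM, with 1, 0 and 0 at 0, and the 11 dermal papilla or sheath markers to 382, 562 and 691 CPM, with 0, 2 and 0 at 0. The part of these lists in the ratios was not tested.

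The named pericyte or smooth muscle-like clusters had more C4b in the knockout. Mural cells, which wrap blood vessels, fall in this class. Unnamed clusters nearest to this class held more knockout cells and are not part of these values. In the cluster of Rgs5, Gm13889 and Crispld2, pericyte or smooth muscle-like, C4b was 38.03, 133 and 10.5 CPM in 330, 86 and 46 cells. The knockout ratio was 3.5 [2.39–5.15], in a cluster where 1.89% of all genes counted as higher. In the muscle-type cluster of Des, Actg2 and Tpm2 the young control held only 5 C4b UMIs (7.98 CPM) in 61 cells, and the knockout held 90.1 CPM in 489 cells. That ratio was 11.3 [4.72–35.3], beside 2.15% of all genes. Macrophage or dendritic-like cells had 105, 147 and 81.8 CPM. None of these differences between clusters was tested, since each group was 1 library.

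**Figure D3:**
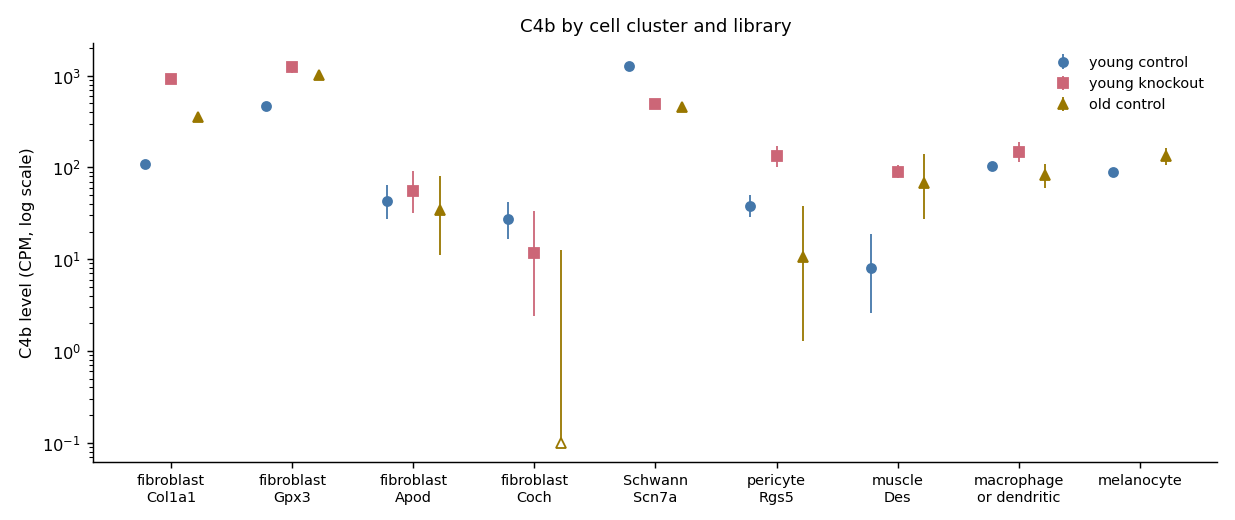
C4b level in 9 clusters, labelled by class and leading gene, in CPM on a log scale with exact Poisson 95% intervals, for libraries with at least 15 cells in the cluster. The open symbol at the foot of the axis marks 0 UMIs. The young control is lowest in the Col1a1 and Gpx3 fibroblast clusters and highest in the Scn7a Schwann cluster.

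A yardstick for free fibroblast RNA took all Col1a1, Col1a2 and Col3a1 UMIs of a class as free and scaled the fibroblast-like profile to them. Young control C4b in the Scn7a cluster was 69.7 times the level so reckoned, whereas C3 in the same cells was 0.584 times it.

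Factor B (Cfb), the protease of the alternative pathway, was scarce in fibroblast-like cells. It had 133 UMIs in the young control (8.87 [7.42–10.5] CPM), 27 in the knockout (20.4 [13.4–29.6] CPM) and 67 in the old control (32.04 [24.8–40.7] CPM). The young control was lowest, and the other libraries overlapped. The old ratio of 3.61 [2.65–4.88] met the size rule, as 1.85% of all genes did in that direction. Cfb was the only one of the 8 genes to do so. Its mean was over the level limit only through the knockout and the old control, as the young control was under 20 CPM. Young control Cfb reached at most 9.77 CPM in any cluster of at least 50 cells. With cells thinned to 1500 UMIs the old ratio was 2.59, with a lower bound under 1.5. The knockout ratio of 2.3 [1.46–3.49] did not meet the rule, because its lower bound was under 1.5. Within the Col1a1 cluster both ratios met it, at 3.11 [1.71–5.34] and 4.25 [2.9–6.21]. In the Gpx3 cluster the old ratio was 3.82 [1.81–7.34]. These values carry the limit given above for the overlap of Cfb with Gm20547.

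Factor D (Cfd), which cleaves factor B, is known as an adipocyte product. Fibroblast-like cells had 19 Cfd UMIs in the young control and 0 in each of the other libraries. Its highest young control level among named classes was in vascular endothelial-like cells, with 40 UMIs (15.1 [10.8–20.6] CPM). The knockout and old control had 0 UMIs there. Those counts of 0 had upper limits of 8.18 and 3.32 CPM by the intervals used throughout. An unnamed cluster led by the muscle and blood genes Acta1, Mylpf and Hbb-bt had 33.1 CPM from 16 UMIs. C7, of the membrane attack complex, had 15, 4 and 1 UMIs in fibroblast-like cells, too few for an order of the libraries.

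Over all fibroblast-like cells the classical pathway proteases were both lowest in the knockout. C1s1, the gene of C1s, reached 443 [432–454] CPM in fibroblast-like cells of the young control, 270 [243–299] CPM in the knockout and 443 [415–472] CPM in the old control. C1ra, the gene of C1r, reached 225 [217–232], 179 [157–203] and 283 [260–306] CPM. The knockout ratios were 0.61 [0.547–0.678] and 0.795 [0.694–0.908], and neither met the size rule. For the old control the interval of the C1s1 ratio ran from 0.933 to 1.07, and the C1ra ratio was 1.26 [1.15–1.37]. Within the Col1a1 cluster the knockout ratio of C1s1 was 0.786 [0.655–0.937], but that of C1ra was 1.3 [1.08–1.54], above 1. The old ratios there were 1.47 [1.33–1.61] and 1.84 [1.65–2.05].

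Serping1, the inhibitor of both proteases, differed less than C3 and C4b. It reached 1921 [1899–1944] CPM in fibroblast-like cells of the young control, 1307 [1246–1370] CPM in the knockout and 2390 [2324–2457] CPM in the old control. The knockout was lowest and the old control highest, without overlap, and the ratios of 0.68 [0.648–0.714] and 1.24 [1.21–1.28] were within the fold limits. A Serping1 UMI was present in 96.5%, 94.3% and 94.5% of these cells. In the Apod cluster it was 1050, 1311 and 1072 CPM, and in the Coch cluster 587, 550 and 435 CPM.

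**Figure D4:**
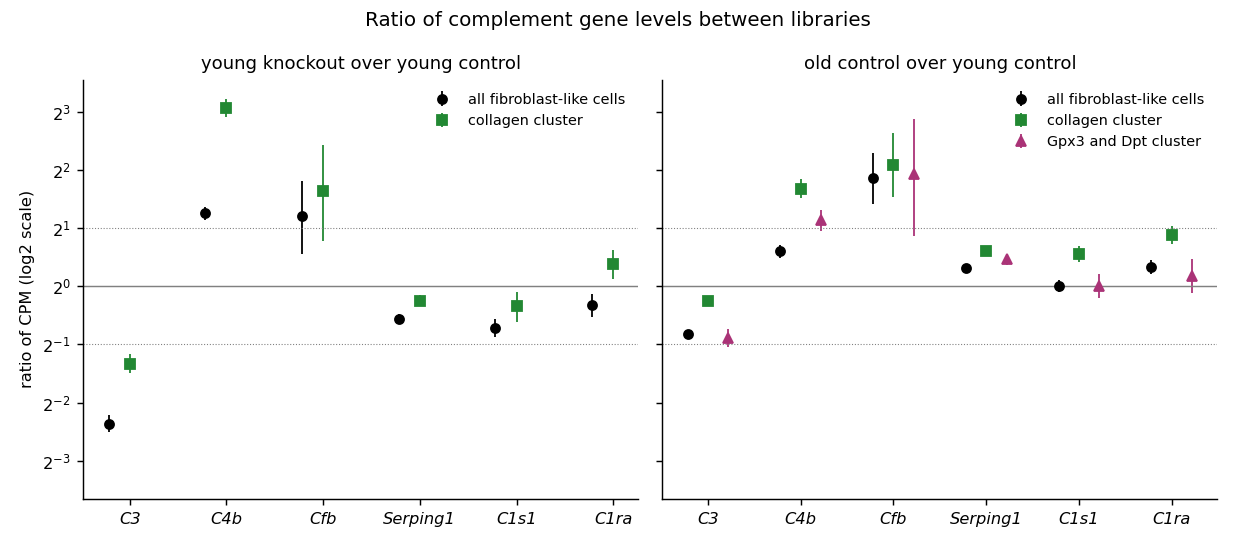
Ratio of the knockout and of the old control to the young control for the complement genes, on a log scale with exact 95% intervals for counting error, in all fibroblast-like cells (black), the Col1a1 cluster (green, collagen cluster in the key) and the Gpx3 cluster (purple, old control only). Dotted lines mark ratios of 2 and 0.5. C3 lies at 0.194 and C4b at 2.39 for the knockout in all fibroblast-like cells, and C4b at 8.36 in the Col1a1 cluster.

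Outside fibroblasts, the classical proteases and their inhibitor were also present in mural cells, hair follicle mesenchyme and vessels. In the Rgs5 cluster C1s1 was 432, 378 and 284 CPM and Serping1 496, 559 and 483 CPM in the young control, knockout and old control. In dermal papilla or sheath-like cells, from the base and wall of the hair follicle, C1s1 was 98.4, 79.1 and 185 CPM and Serping1 181, 71.5 and 171 CPM. The knockout ratio of Serping1 there, 0.396 [0.323–0.481], met the size rule, as 5.21% of all genes did. The 2 libraries draw on different clusters here, since 49 of the 61 knockout cells formed a cluster with 0 cells of either control, with Slc26a7 and Rasd1 among its leading genes, and the other 12 shared a cluster with all 202 young control cells. The knockout cells of the class also had a median of 26418 UMIs against 3648 in the young control, and the part of either in the ratio was not tested. Vascular endothelial-like cells had 115, 73.1 and 282 CPM of Serping1, and their old ratio of 2.45 [2.09–2.88] met the rule beside 3.58% of all genes. Lymphatic endothelial-like cells had 123, 124 and 162 CPM of C3 and 343, 269 and 303 CPM of Serping1. By the yardstick above, young control levels were 24.1 times the free RNA level for C1s1 in the Rgs5 cluster, 7.47 times for C1s1 in dermal papilla or sheath-like cells, and 5.44 and 12.2 times for C3 and Serping1 in lymphatic cells. For lymphoid cells (T, NK or innate) they were 1.45 times for C3 and 1.11 times for Serping1.

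Fibroblast-like cells gave smaller shares of the transcripts in the other libraries, again counted over the kept cells only. In the knockout, where they held 4.58% of all UMIs, they supplied 48.2% of C3, 28.8% of Serping1 and 25.4% of C4b UMIs. In the old control, where they held 5.15%, they supplied 54.9% of C3, 49.97% of Serping1 and 35.1% of C4b. Such shares also depend on how many cells of each class a library held.

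Of a list of 49 other complement genes, 48 were among the features and 8 were over the level limit in fibroblast-like cells. In the knockout 3 counted as higher and 1 as lower, where 5.24% and 4.03% of all genes did. Their median log2 ratio was 0.71, against 0.17 over all genes. For the 6 over the limit within the Col1a1 cluster it was -0.13, against 0.20 over all genes there. Among the 3 counted as higher in all fibroblast-like cells was Masp1, a protease of the lectin pathway, at 3.75 [3.34–4.2]. Another was Vtn, vitronectin, which binds the membrane attack complex, at 5.09 [3.8–6.76]. Vtn was 10.7, 54.3 and 13.4 CPM in the young control, knockout and old control. It was thus over the level limit only through the knockout, and it is part of the counts and medians over the 8 genes. Cd55, decay-accelerating factor, was lower at 0.419 [0.349–0.499]. Without the Apod cluster Masp1 alone counted as higher. Vtn was under the level limit after thinning, with each library clustered alone and with an equal cluster mix, and with that mix its ratio was 0.844, on the other side of 1. The Cd55 ratio was 0.534 [0.374–0.742] after thinning and 0.639 with the equal mix, where it did not meet the rule. Within the Col1a1 cluster Cd55 counted as lower, at 0.444 [0.339–0.572]. In the old control C2, the classical pathway partner of C4, was the only one that counted as higher, at 2.31 [2.03–2.61], where 1.85% of all genes did. None of the 8 counted as lower, and their median log2 ratio was 0.39, against 0.04 over all genes. After thinning the C2 ratio was 1.83 [1.41–2.37], which did not meet the rule. Within the Col1a1 cluster Masp1 was 58.4 CPM in the young control and 409 CPM in the knockout, and C2 had an old ratio of 4.13 [3.47–4.91]. In the Apod cluster the level of Vtn was 152 CPM in the young control and 251 CPM in the knockout, a ratio of 1.65 [1.18–2.29].

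The other complement genes with high levels were spread over several classes. The subunits of C1q, which recognise antibody and dying cells, were highest in macrophage or dendritic-like cells (709, 59 and 81 cells). There C1qa was 429, 1468 and 552 CPM, C1qb 330, 1254 and 416 CPM and C1qc 272, 1041 and 407 CPM. The knockout ratios were 3.42 [3.12–3.75], 3.8 [3.43–4.2] and 3.82 [3.42–4.26]. Cfp, properdin, which stabilises the alternative pathway convertase, was 238, 78.1 and 97.5 CPM in the same class, with ratios of 0.328 [0.226–0.462] and 0.41 [0.307–0.536]. No share of all genes is given beside these ratios, and they were not read by the size rule. This class was named from markers of both macrophages and dendritic cells, and the part of their mix in the ratios was not tested. Itgb2, the beta chain of complement receptor 3, was 137, 165 and 141 CPM. In vascular endothelial-like cells Clu, clusterin, was 372, 993 and 296 CPM and Cd93 762, 685 and 208 CPM. Cd59a, which blocks assembly of the membrane attack complex, was 452, 433 and 378 CPM in Schwann-like cells. Colec12, a collectin scavenger receptor, was 92.8, 152 and 128 CPM in fibroblast-like cells.

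Other gene lists were read beside the complement genes in fibroblast-like cells. The 11 interferon response genes summed to 1788, 2411 and 2196 CPM in the young control, knockout and old control, and to 1638, 2347 and 2360 CPM in the Col1a1 cluster. In the Scn7a cluster they summed to 1915, 1631 and 1302 CPM. Within the list Isg15 was 14.9, 58.1 and 33.00 CPM and Irf1 241, 468 and 367 CPM, whereas Gbp2 was 244, 52.8 and 111 CPM. In the Col1a1 cluster Isg15 was 13.01, 87.3 and 36.9 CPM, Irf1 261, 207 and 403 CPM and Gbp2 277, 75.97 and 148 CPM, so Irf1 was lowest in the knockout there. The 9 acute-phase type genes summed to 2910, 3671 and 2970 CPM, with 0, 0 and 2 at 0. Most of these sums came from Cebpb, Cebpd and Socs3, while Saa3, Lcn2 and Hp were each under 3 CPM in every library. The 10 dissociation stress genes summed to 20417, 20455 and 18653 CPM. Within that list the heat shock genes Hspa1a, at 201, 1185 and 220 CPM, and Hspa1b, at 162, 1491 and 195 CPM, were nevertheless highest in the knockout. The 8 fibroblast markers summed to 87250, 41894 and 52317 CPM and the 11 dermal papilla or sheath markers to 127, 652 and 221 CPM, none at 0 in either list. In the Col1a1 cluster these sums were 117766, 60582 and 62126 CPM and 111, 503 and 137 CPM. The 10 keratinocyte markers summed to 1690, 336 and 948 CPM, none at 0. The 8 macrophage or monocyte markers summed to 84.6, 22.6 and 33.5 CPM, with 0, 3 and 3 at 0. The part of any of these in the complement ratios was not tested.

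Across the 25 young control clusters of at least 50 cells, the proteases and their inhibitor had like patterns. On log2(CPM + 10), Pearson's r was 0.94 for C1s1 and C1ra, 0.96 for C1ra and Serping1 and 0.91 for C1s1 and Serping1. The genes with the pattern most like C3 were Clec3b (r = 0.95), Angptl1 (0.93) and Dpep1 (0.91). For C4b they were Opcml (0.84), Fads6 (0.82) and Adam23 (0.81). Serping1 was most like Ecm2 and Fstl1 (both 0.97), C1s1 most like Gstt1 (0.94) and C1ra most like Fbn1 (0.95). The clusters share 1 library and differ in depth, so these values are descriptions. Cfb, Cfd and C7 stayed under 50 CPM in all of these clusters and were left out.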

How the data were processed

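Droplet single-cell RNA counts were analysed from 3 libraries of mouse dorsal skin, digested in collagenase I, strained through a 70 µm mesh and captured with 10x 3' chemistry v3.1, per the labels' protocols. As deposited, each matrix gives unnormalised UMI counts for genes by barcodes, and per the file headers the authors' software was Cell Ranger 3.1.0. The build mm10 and Seurat 3.1.5 come from the submitters' processing notes. How the authors selected the deposited barcodes was not stated there.

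The young control had 15290 barcodes and 95274423 UMIs, the knockout 25348 and 57767761, and the old control 22108 and 52579262. A cell needed 500 genes, 1000 UMIs and a mitochondrial share of 15% or less (11722, 9408 and 12074 passed). Scrublet's automatic threshold marked 3.11%, 0% and 0.00828% of them, so the top 8% by score were dropped per library. Counts were scaled to 10000, reduced to 2000 variable genes and 30 principal components (scanpy 1.11.5), and clustered on 20 neighbours with Leiden at resolution 1 (leidenalg 0.10.2). Complement genes were left out of the clustering. Clusters with mixed or too few markers stayed unnamed; the naming thresholds and the doublet fallback were chosen with the cluster tables in view.

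UMIs were summed per library and class. CPM carry exact Poisson intervals, shares Clopper-Pearson intervals and ratios exact binomial intervals, all at 95% and for counting error only. Ratios were computed for groups with at least 40 cells in both libraries. The size rule was tried on simulated counts that held counting error only, at the depths of the knockout and the old control. It recovered 178 of 200 changed genes at each depth, and called 1 of 5679 and 0 of 5717 unchanged genes. Differences between animals or in cluster mix were not part of it. edgeR 4.0.16 and DESeq2 1.42.0 (R 4.3.3) gave scaling factors for alternatives only. Other alternatives were another cell filter, doublets kept, thinning to 1500 UMIs, subtraction of free RNA, clustering of each library alone or with complement genes, a lower level limit and an equal cluster mix.

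Among other complement genes, those named are the 12 with the highest mean level in a class of at least 100 cells (40 in each library), besides those that met the size rule in fibroblast-like cells. One such gene and one cluster are not reported here, though counts over the list include that gene. The 8 genes and all lists were chosen with earlier results of these data known. No table column went unused (0 columns).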

Additional observations from a re-analysis of the deposited data

Results flagged for a closer look

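C4b gave opposite directions in different clusters under the same comparison, and these differences were not tested. Knockout over young control gave a ratio of 8.36 in the Col1a1 fibroblast cluster, 11.3 in the Des and Actg2 cluster (from 5 young control UMIs) and 3.5 in the Rgs5 pericyte cluster. The same ratio was 0.388 in the Scn7a Schwann cluster. Old over young control gave 3.19 in the Col1a1 cluster and 2.19 in the Gpx3 cluster, against 0.361 in the Scn7a cluster. With 1 library per group each value compares these libraries, and the knockout's sex and its genotype cannot be told apart.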

How the results depend on the processing

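Over 11 alternatives, the 132 ratios of C3, C4b, Cfb, Serping1, C1s1 and C1ra in fibroblast-like cells stayed on the reported side of 1 in 126 cases, and 34 moved beyond the counting interval. Knockout ratios ranged from 0.172 to 0.279 for C3 and from 2.12 to 3.91 for C4b, and both genes met the size rule under each alternative. For all calls with the equal cluster mix the ratio and level alone were read, since no interval was computed. Old control ratios ranged from 0.511 to 0.666 for C3 and from 0.921 to 1.17 for C1s1. Scaling by edgeR's TMM factors gave the knockout ratios of 0.172 for C3 and 2.12 for C4b. The genes counted as higher in the knockout numbered 2 instead of 1, with Cfb added, when doublets were kept, under the stricter cell filter, with an equal cluster mix in every library (where no interval was computed) and without the Apod cluster. Other complement genes counted as higher in the knockout numbered 1 instead of 3 without the Apod cluster. Those counted as lower numbered 0 instead of 1 after thinning and with the equal cluster mix, and 2 at a level limit of 5 CPM, where C1qa was added. In the old control, thinning gave 0 instead of 1 of the 8 genes and 0 instead of 1 other gene counted as higher, and the equal cluster mix gave 2 of the 8, with C4b added. Other genes counted as lower numbered 1 instead of 0 with each library clustered alone and at the limit of 5 CPM (C1qa). The cause was not tested. The count of 6 genes highest in fibroblast-like cells was 5 with complement genes kept in the clustering, and with the young control's rule applied to the other libraries it was 7 (knockout) and 6 (old control), counting dermal papilla or sheath-like cells with fibroblasts. The count of 6 genes highest in the Gpx3 cluster ranged from 5 to 7. The set without the Apod cluster and the counts in the other libraries were chosen after seeing the data. Estimated free RNA made up 17.2%, 8.98% and 6.28% of fibroblast-like UMIs. With 27 Cfb UMIs in knockout fibroblast-like cells, depth limits that gene most among those over the level limit. No paired analysis was possible because each group was 1 library, so no replicate could be left out either.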
